A study of Mus musculus with 12 samples.

Results

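Transcripts of 8 chemokine receptors of inflammatory and follicular T cells, Ccr2, Ccr4, Ccr6, Ccr8, Cxcr3, Cxcr4, Cxcr5 and Cxcr6, were followed in mouse T cells co-cultured with partner cells, named Res in the labels. The receptors were identified by gene symbol from a count table of 53762 symbols, and all 8 were among the 16945 genes with enough counts to be tested. The T cells came from spleen, and the partner cells carried either shFabp7, a short hairpin RNA against the fatty acid binding protein gene Fabp7, or a control. RNA was sequenced after 24 h or 48 h, which gave 4 groups of 3 libraries. These were T cells kept for 48 h with the shFabp7 partner or with the control partner, and T cells kept for 24 h with the shFabp7 partner or with the control partner. The study asked how the T cell transcriptome differs with the partner. No culture without a partner and no T cells before co-culture were among the samples, so both times are given relative to each other only. What Res cells are, how many animals gave the T cells, and how T cells were separated from partner cells were not given in the sources available here.

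Chemokine receptors are G protein-coupled receptors that turn a gradient of a secreted chemokine into directed movement, through Gi proteins and phosphoinositide 3-kinase gamma. Arrestins, receptor kinases and RGS proteins end the signal. Which receptors a T cell carries depends on its state. CCR4 binds CCL17 and CCL22, and CCR8 binds CCL1, and both mark type 2 helper and many regulatory T cells. CXCR3 binds CXCL9, CXCL10 and CXCL11 and marks type 1 helper and effector CD8 T cells, while CXCR6 binds CXCL16 and is found on effector and tissue-resident T cells. CCR2 binds CCL2 and its relatives and is best known on monocytes, and CCR6 binds CCL20 and marks Th17 cells. CXCR4 binds CXCL12 and is found on nearly all leukocytes, and CXCR5 binds CXCL13 and guides B cells and follicular helper T cells into follicles.

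The start regions of the 4 receptors whose transcripts differed by partner are shown, since these are the members that the comparison by partner turns on. They come from RefSeq on build GRCm38.p6 and run from 250 bases before to 50 bases after the annotated gene start, on the strand of the gene. RefSeq entries of this kind were at hand for 7 of the 8 receptors. The coordinates are chr9:114496495-114496794 (minus strand) for Ccr4, chr9:120091883-120092182 (plus strand) for Ccr8, chr9:123806227-123806526 (plus strand) for Cxcr6 and chr1:128592250-128592549 (minus strand) for Cxcr4. Capitals mark matches, on either strand, to the 5 motifs searched.
Ccr4: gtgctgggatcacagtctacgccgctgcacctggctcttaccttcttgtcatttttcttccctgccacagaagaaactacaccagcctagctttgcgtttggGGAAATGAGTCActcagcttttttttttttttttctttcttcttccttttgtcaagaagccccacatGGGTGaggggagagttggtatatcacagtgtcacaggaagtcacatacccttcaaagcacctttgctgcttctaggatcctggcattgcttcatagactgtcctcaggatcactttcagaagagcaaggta
Ccr8: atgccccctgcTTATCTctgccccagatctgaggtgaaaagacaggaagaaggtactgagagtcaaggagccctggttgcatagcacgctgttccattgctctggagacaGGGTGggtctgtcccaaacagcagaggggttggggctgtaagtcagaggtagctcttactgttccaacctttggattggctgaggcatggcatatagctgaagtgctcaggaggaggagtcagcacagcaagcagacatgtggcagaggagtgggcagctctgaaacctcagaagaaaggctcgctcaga
Cxcr6: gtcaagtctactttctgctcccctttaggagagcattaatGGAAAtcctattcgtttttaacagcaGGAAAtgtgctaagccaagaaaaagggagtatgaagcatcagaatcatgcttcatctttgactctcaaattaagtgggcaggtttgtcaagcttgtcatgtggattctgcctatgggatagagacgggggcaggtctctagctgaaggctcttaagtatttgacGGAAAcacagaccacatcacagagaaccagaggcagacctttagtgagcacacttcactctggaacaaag
Cxcr4: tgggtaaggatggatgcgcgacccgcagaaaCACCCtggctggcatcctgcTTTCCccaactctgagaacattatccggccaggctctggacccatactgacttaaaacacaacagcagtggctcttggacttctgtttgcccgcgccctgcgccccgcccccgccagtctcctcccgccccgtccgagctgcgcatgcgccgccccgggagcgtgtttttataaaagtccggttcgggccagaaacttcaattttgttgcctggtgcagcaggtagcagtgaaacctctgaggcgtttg
The motifs were an NFAT core (GGAAA), an AP-1 site (TGA and TCA with 1 base between them), a GATA site (AGATAA), a KLF site (CACCC) and a T-box site (GGTGTGA). Over 32851 mouse promoters of the same length they occurred in 61.3%, 7.81%, 11.2%, 57.5% and 3.98%. The Ccr4 window held 1 NFAT core directly followed by 1 AP-1 site, with no base shared, and 1 KLF site. The Ccr8 window held 1 GATA site and 1 KLF site, the Cxcr4 window 1 NFAT core and 1 KLF site, and the Cxcr6 window 3 NFAT cores. The Ccr2 window, not shown, held 4 NFAT cores and 1 GATA site, and each of the 2 Ccr6 windows held 1 NFAT core, the downstream one with 1 GATA site as well. None of these letters occurred in the 300 bases of Cxcr3. A match of letters is a description of the sequence and was not tested for binding of a factor.

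Library totals were 32.0 to 40.6 M counts, and 3 counts, the limit that a count of 0 allows, corresponded to 0.0713 to 0.101 CPM (counts scaled to a common library size of 1 M, with TMM factors). Levels below are in CPM, and p-values are from edgeR's quasi-likelihood test, adjusted over the 16945 genes, with 0.05 as threshold; "rose", "fell" and "changed" are used for genes past it. Whether the 3 libraries of a group stem from different cultures or mice is not stated in the labels, and if they do not, the p-values capture technical spread alone. The 13 T cell markers, none of them at 0, summed to 3104 to 3204 CPM at 48 h and 4128 to 4354 CPM at 24 h. With each partner 10 of them fell over time and 2, Cd4 and Cd3g, rose. By partner, 1 rose (Cd5) and 5 fell at 48 h with the shFabp7 partner, against 19.9% and 11.6% of all genes. At 24 h Cd5 alone passed, as higher. The falls at 48 h included Cd8a, Cd3g and Cd3d (log2 fold changes -0.23, -0.20 and -0.18, adjusted p = 0.00143, 0.00281 and 0.00870). Those of Cd8a and Cd3g held in all 14 alternatives, and the other falls were lost in 1 to 9. The 8 dendritic cell markers, of which Cd209a was at 0, summed to 32.7 to 37.2 CPM at 48 h and 10.9 to 13.2 CPM at 24 h, and with each partner Batf3, Itgax and Zbtb46 rose and Flt3 fell, a call lost in 1 of 14 alternatives with the shFabp7 partner and in 3 with the control partner. At 48 h Zbtb46, Batf3 and Itgax averaged 14.3, 10.9 and 8.88 CPM with the shFabp7 partner, and 14.2, 9.54 and 9.81 CPM with the control partner. Clec9a, Xcr1 and Siglech, at most 2, 6 and 8 counts in a library, were too low to be tested. The part of the T cell and dendritic cell marker shifts in the receptor changes, over time or by partner, was not tested. Sums over all libraries were 13.8 to 25.5 CPM for 10 B cell markers, 38.3 to 77.0 CPM for 10 monocyte and macrophage markers, 1.09 to 5.64 CPM for 8 neutrophil markers, 0.451 to 1.23 CPM for 6 red cell markers and 8.29 to 14.1 CPM for 9 epithelial and fibroblast markers. Fabp7, the gene targeted in the partner cells, had 0 counts in 9 of the 12 T cell libraries and at most 3 in the others, so these libraries give no check of the knockdown, which was made in the partner. As these are bulk samples, fewer cells that carry a receptor and less of its RNA per cell cannot be told apart.

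More receptors, like more of all genes, passed the threshold by partner at 48 h than at 24 h. Of the 8 receptors, 1 changed at 24 h, where 10.9% of all tested genes did, and 4 changed at 48 h, where 31.6% did. The receptor that fell at 24 h was Cxcr4, while 4.65% of all genes fell and 6.22% rose. At 48 h Ccr4 and Ccr8 rose with the shFabp7 partner, as did 19.9% of all genes, and Cxcr4 and Cxcr6 fell, as did 11.6%. The 3 libraries of the groups lay wholly apart in 2 receptors at 24 h (27.5% of all genes) and in 6 at 48 h (44.0% of all genes). Time moved more of them: 6 of 8 changed at 48 h relative to 24 h with the shFabp7 partner (66.1% of all genes) and the same 6 with the control partner (67.7% of all genes), with 3 up and 3 down in each. Ccr4, Ccr8 and Cxcr5 rose over time with both partners and Cxcr3, Cxcr6 and Ccr6 fell with both. Of all genes, 35.9% rose and 30.2% fell with the shFabp7 partner, and 35.8% rose and 32.0% fell with the control partner. The 48 h and 24 h libraries lay wholly apart in 6 receptors with the shFabp7 partner (71.4% of all genes) and in 6 with the control partner (68.6% of all genes). The partner effect itself changed between the times in 1 receptor, Ccr4, upwards, against 5.60% of all genes, made up of 4.43% with an upward and 1.17% with a downward change. Other ways of scaling the libraries move these splits by direction over all genes, and at 24 h the share of calls that are higher was 57.2%, with a range of 33.2 to 73.1%. These shares of receptors are of 8 genes, and at 24 h, over time and for the change of the effect each lies within 1 receptor of the share of all genes.

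**Figure D1:**
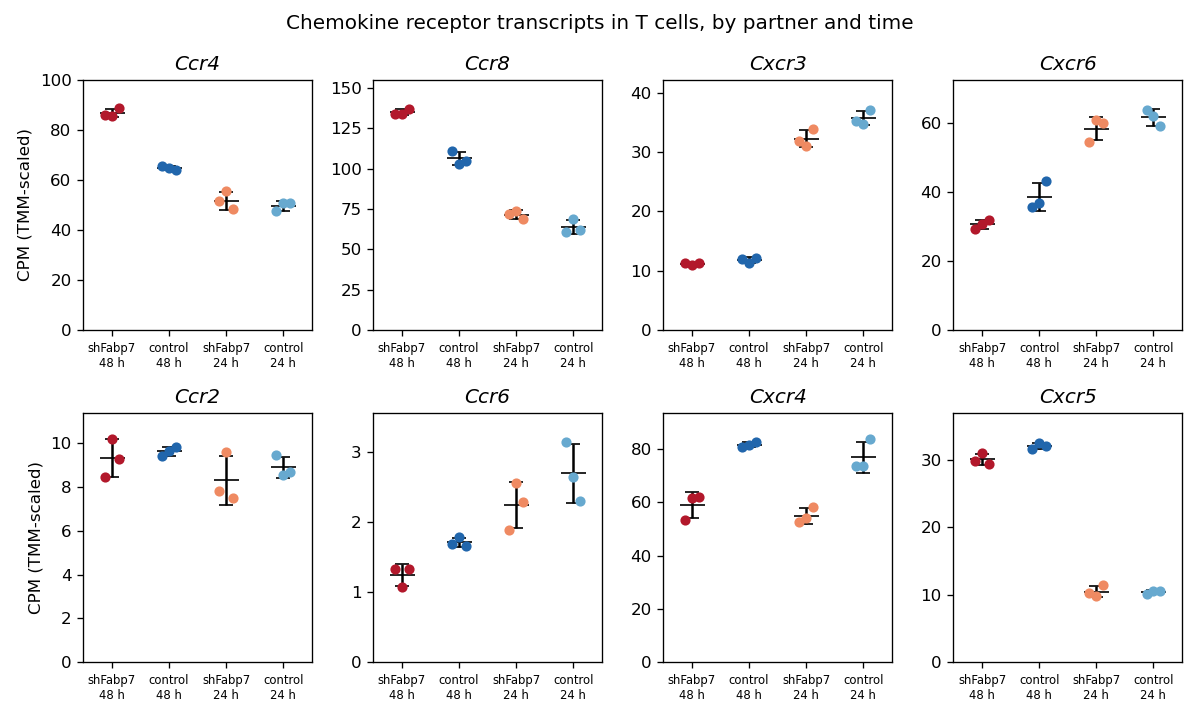
CPM of the 8 receptors in each library, by partner and time; dots are libraries, and the line and bars are the mean and SD of 3. Cxcr4 is lower with the shFabp7 partner at both times, Ccr4 and Ccr8 are highest with the shFabp7 partner at 48 h, and Cxcr3 and Cxcr5 part by time rather than by partner.

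Ccr4, the receptor for CCL17 and CCL22, had 86.2, 85.8 and 89.0 CPM in the 3 libraries with the shFabp7 partner at 48 h, against 65.7, 64.8 and 64.0 CPM with the control partner at 48 h. The 24 h values were 51.5, 55.6 and 48.3 CPM with the shFabp7 partner, against 47.5, 50.7 and 50.9 CPM with the control partner. The groups lay far apart at 48 h and overlapped at 24 h. At 48 h Ccr4 was 1.34 times as high with the shFabp7 partner (log2 fold change 0.42 ± 0.06 SE, adjusted p = 2.9e-07). At 24 h the log2 fold change was 0.06 ± 0.06 (adjusted p = 0.583), with an interval of 2 SE from -0.06 to 0.17. Ccr4 rose over time with the shFabp7 partner by log2 0.75 ± 0.06 (adjusted p = 1.0e-13) and with the control partner by log2 0.38 ± 0.06 (adjusted p = 3.3e-07). The difference between the partner effects at the 2 times was log2 0.37 ± 0.08 (adjusted p = 0.00498). This last call was lost without the third shFabp7 library at 24 h, the lowest of its group (log2 0.27, adjusted p = 0.0827). In order of level the shFabp7 group at 48 h came first and the control group at 48 h next, followed by the 24 h groups, which did not differ beyond their spread.

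Ccr8, the receptor for CCL1, had 134, 134 and 137 CPM at 48 h with the shFabp7 partner, against 111, 103 and 105 CPM with the control partner. Its 24 h libraries held 71.9, 73.8 and 68.5 CPM with the shFabp7 partner, against 60.9, 68.8 and 61.9 CPM with the control partner. The groups did not overlap at 48 h, while at 24 h the lowest shFabp7 library lay just under the highest control library. At 48 h Ccr8 rose by log2 0.35 ± 0.05 with the shFabp7 partner (1.27-fold, adjusted p = 4.3e-06). At 24 h the log2 fold change was 0.16 ± 0.06 and missed the threshold (adjusted p = 0.0577), and it passed in 5 of 14 alternatives, DESeq2 among them (adjusted p = 0.0118). Over time Ccr8 rose by log2 0.92 ± 0.05 with the shFabp7 partner (adjusted p = 2.2e-16) and by log2 0.73 ± 0.05 with the control partner (adjusted p = 8.5e-14). The partner effect at 48 h exceeded that at 24 h by log2 0.19 ± 0.08, which did not pass (adjusted p = 0.160, interval of 2 SE from 0.03 to 0.34).

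The ligand transcripts of these receptors moved differently from the receptors. Ccl17, a ligand of CCR4, had 5.94, 6.85 and 5.57 CPM at 48 h with the shFabp7 partner, against 9.70, 9.60 and 9.59 CPM with the control partner. At 24 h Ccl17 had 5.16, 4.83 and 5.08 CPM with the shFabp7 partner, against 10.8, 9.34 and 9.53 CPM with the control partner. All 6 shFabp7 libraries lay under all 6 control libraries. Ccl17 fell with the shFabp7 partner by log2 0.66 ± 0.11 at 48 h (adjusted p = 1.4e-05) and by log2 0.98 ± 0.11 at 24 h (adjusted p = 2.1e-06). Ccl22, the other CCR4 ligand, averaged 172 ± 11.8 CPM with the shFabp7 partner and 169 ± 20.7 CPM with the control partner at 48 h, and at 24 h 156 ± 9.89 CPM with the shFabp7 partner and 229 ± 28.2 CPM with the control partner (SD, n = 3 each). It fell at 24 h (log2 fold change -0.55 ± 0.09, adjusted p = 0.00275) and had a log2 fold change of 0.02 ± 0.09 at 48 h (adjusted p = 0.901), and these effects differed by log2 0.57 ± 0.13 (adjusted p = 0.0240, lost in 6 of 19 alternatives). Ccl8, listed with Ccl1 as a ligand gene of CCR8, had at most 3 counts in a library. Ccl1 averaged 8.26 ± 1.69 CPM with the shFabp7 partner and 11 ± 2.13 CPM with the control partner at 48 h. Its 24 h means were 79.4 ± 6.32 CPM with the shFabp7 partner and 69.9 ± 8.46 CPM with the control partner. While Ccr8 rose over time, Ccl1 fell by log2 3.27 ± 0.17 with the shFabp7 partner (adjusted p = 9.7e-09) and by log2 2.68 ± 0.16 with the control partner (adjusted p = 4.0e-08), with no call by partner (adjusted p = 0.122 at 48 h and 0.463 at 24 h).

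Gata3, the transcription factor that directs type 2 helper cells, had 256, 257 and 262 CPM at 48 h with the shFabp7 partner, against 217, 197 and 193 CPM with the control partner. With the shFabp7 partner at 24 h there were 147, 144 and 140 CPM, against 124, 124 and 131 CPM with the control partner. The groups were apart at both times, in the same order as for Ccr8. Gata3 rose with the shFabp7 partner by log2 0.35 ± 0.05 at 48 h (adjusted p = 1.6e-06) and by log2 0.19 ± 0.05 at 24 h (adjusted p = 0.0170), and the 24 h call was lost under scaling by library totals (adjusted p = 0.0630) and without the first library of either 24 h group (highest adjusted p = 0.0546). Foxp3, which defines regulatory T cells, another population that carries CCR4 and CCR8, took the other course over time. It averaged 28.2 ± 2.31 CPM with the shFabp7 partner and 27.6 ± 5.76 CPM with the control partner at 48 h, and at 24 h 140 ± 3.76 CPM with the shFabp7 partner and 141 ± 6.90 CPM with the control partner. Foxp3 fell by log2 2.32 ± 0.11 with the shFabp7 partner and by log2 2.36 ± 0.11 with the control partner (adjusted p = 4.9e-11 and 3.6e-11), and no partner effect on it passed (adjusted p = 0.876 at 48 h and 0.961 at 24 h).

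Cxcr3, the receptor for the interferon-induced chemokines, had 11.3, 10.9 and 11.2 CPM at 48 h with the shFabp7 partner, against 12, 11.2 and 12.1 CPM with the control partner. At 24 h it had 31.8, 31.0 and 33.8 CPM with the shFabp7 partner, against 35.3, 34.7 and 37.0 CPM with the control partner. Every 48 h library lay under every 24 h library, and by partner the groups were apart at 24 h but overlapped at 48 h. Cxcr3 fell over time by log2 1.53 ± 0.07 with the shFabp7 partner (2.89-fold lower, adjusted p = 6.5e-19) and by log2 1.60 ± 0.07 with the control partner (3.02-fold lower, adjusted p = 1.3e-19). By partner its log2 fold change was -0.09 ± 0.08 at 48 h (adjusted p = 0.438) and -0.15 ± 0.07 at 24 h (adjusted p = 0.161). Together with Cxcr5 it was the receptor with the largest change over time with either partner.

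Cxcr6, the receptor for the membrane-bound chemokine CXCL16, had 29.2, 30.8 and 31.8 CPM at 48 h with the shFabp7 partner, against 35.5, 36.7 and 43.2 CPM with the control partner. The 24 h values were 54.4, 60.7 and 59.8 CPM with the shFabp7 partner, against 63.8, 62.0 and 58.9 CPM with the control partner. The partner groups were apart at 48 h and overlapped at 24 h, and all 48 h libraries lay under all 24 h libraries. At 48 h Cxcr6 fell with the shFabp7 partner by log2 0.33 ± 0.07 (0.795 of the control level, adjusted p = 2.7e-04). At 24 h the log2 fold change was -0.08 ± 0.07 (adjusted p = 0.493). The difference between these effects, log2 -0.25 ± 0.09, missed the threshold (adjusted p = 0.117) and passed in 3 of 19 alternatives. Over time Cxcr6 fell by log2 0.93 ± 0.07 with the shFabp7 partner (adjusted p = 4.7e-14) and by log2 0.68 ± 0.07 with the control partner (adjusted p = 5.7e-11). The gene lies within the span of Fyco1, an adaptor of vesicle transport on the opposite strand, with no shared exon in GENCODE vM21; the strand mode of counting is not given in the sources used here. Fyco1 rose over time, by log2 0.42 ± 0.06 with the shFabp7 partner and 0.46 ± 0.06 with the control partner, in the direction opposite to Cxcr6. At 48 h Fyco1 was lower with the shFabp7 partner (log2 fold change -0.19 ± 0.05, adjusted p = 0.00634), a call lost in 2 of 14 alternatives (adjusted p up to 0.0704).

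The ligands of CXCR3 fell over time along with their receptor. Cxcl9 had 22.1, 21.7 and 23.3 CPM at 48 h with the shFabp7 partner, against 28.3, 28.8 and 33.8 CPM with the control partner. Its 24 h libraries held 55.5, 64.0 and 53.1 CPM with the shFabp7 partner, against 64.0, 63.2 and 54.4 CPM with the control partner. As in Cxcr6, the partner groups were apart at 48 h and overlapped at 24 h. Cxcl9 fell with the shFabp7 partner at 48 h (a log2 change of -0.44 ± 0.08, adjusted p = 6.9e-05), and so did Cxcl10 (-0.38 ± 0.09, adjusted p = 0.00227). Over time Cxcl9, Cxcl10 and Cxcl11 fell by log2 1.36, 1.37 and 1.25 with the shFabp7 partner (adjusted p = 1.1e-15, 4.9e-15 and 1.7e-07) and by log2 1.00, 1.24 and 1.20 with the control partner (adjusted p = 7.5e-13, 2.0e-14 and 1.2e-07). Cxcl16, the CXCR6 ligand, averaged 2.84 ± 0.972 CPM with the shFabp7 partner and 4.08 ± 0.577 CPM with the control partner at 48 h. Its call at 48 h (log2 fold change -0.53 ± 0.19, adjusted p = 0.0313) was lost without the third control library or the first shFabp7 library at 48 h (adjusted p = 0.157 and 0.292).

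Tbx21, the T-bet gene that drives type 1 programmes and CXCR3, averaged 165 ± 6.70 CPM with the shFabp7 partner and 132 ± 12.9 CPM with the control partner at 48 h, and at 24 h 220 ± 5.74 CPM with the shFabp7 partner and 204 ± 7.98 CPM with the control partner. It rose with the shFabp7 partner at 48 h (log2 0.32 ± 0.06, adjusted p = 3.8e-05), where Cxcr3 did not change. Over time it fell by log2 0.41 ± 0.06 with the shFabp7 partner (adjusted p = 8.4e-08) and by log2 0.63 ± 0.06 with the control partner (adjusted p = 1.0e-11). The CD8 co-receptor gene Cd8a fell over time in the same groups as Cxcr3, by log2 1.29 ± 0.05 with the shFabp7 partner and by log2 1.13 ± 0.05 with the control partner (adjusted p = 2.1e-20 and 5.4e-19). Cd4 rose by log2 0.39 ± 0.05 with the shFabp7 partner and 0.29 ± 0.05 with the control partner (adjusted p = 1.1e-08 and 2.4e-06). Of the summed level of the 8 NK cell markers, none of them at 0, 89.3 to 92.3% was Eomes, a gene of T cells as well and one of the lineage regulators below. Without Eomes the sum was 14.1 to 16.3 CPM with the shFabp7 partner and 15.9 to 19.3 CPM with the control partner at 48 h, and at 24 h 12.4 to 14.3 CPM with the shFabp7 partner and 11.1 to 14.8 CPM with the control partner. Klrb1c and Fcer1g fell at 48 h with the shFabp7 partner (log2 fold changes -1.51 ± 0.46 and -0.70 ± 0.23, adjusted p = 0.0106 and 0.0166, lost in 3 and 2 of 14 alternatives), at low means of at most 0.688 and 2.31 CPM. Their part in the receptor changes was not tested.

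Ccr2, the CCL2 receptor, had 8.46, 10.2 and 9.26 CPM at 48 h with the shFabp7 partner, against 9.40, 9.65 and 9.82 CPM with the control partner. With the shFabp7 partner at 24 h there were 7.79, 9.59 and 7.51 CPM, against 9.44, 8.55 and 8.68 CPM with the control partner. All 4 groups overlapped. Its log2 fold change by partner was -0.05 ± 0.11 at 48 h (adjusted p = 0.757) and -0.10 ± 0.11 at 24 h (adjusted p = 0.621), and over time it was 0.16 ± 0.11 with the shFabp7 partner and 0.12 ± 0.11 with the control partner (adjusted p = 0.184 and 0.342). The intervals of 2 SE reach from -0.32 to 0.12 at 24 h and from -0.26 to 0.16 at 48 h. Partner effects within these intervals remain possible. The sum of the 10 monocyte and macrophage markers, none of them at 0, was lower at 48 h, at 38.6 to 40.7 CPM with the shFabp7 partner and 38.3 to 41.0 CPM with the control partner, against 67.7 to 75.8 CPM with the shFabp7 partner and 68.1 to 77.0 CPM with the control partner at 24 h. The fall of the sum was that of Ly6c2, which T cells can also express, and without it the sum was 14.9 to 16.5 CPM with the shFabp7 partner and 15.8 to 17.9 CPM with the control partner at 48 h, against 11.6 to 12.8 CPM with the shFabp7 partner and 13.7 to 15.7 CPM with the control partner at 24 h. With each partner 2 of these markers, Cd68 and Itgam, rose over time, and 3 fell. Among the ligand genes of CCR2, Ccl2 had 7 to 21 counts in a library, Ccl7 0 to 11 and Ccl12 at most 1.

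Ccr6, the CCL20 receptor, was the lowest of the receptors, with 38 to 102 counts in a library. It had 1.33, 1.07 and 1.33 CPM at 48 h with the shFabp7 partner, against 1.69, 1.78 and 1.66 CPM with the control partner. At 24 h it had 1.89, 2.55 and 2.28 CPM with the shFabp7 partner, against 3.13, 2.64 and 2.30 CPM with the control partner. The partner groups were apart at 48 h and overlapped at 24 h, and with each partner the 48 h libraries lay under the 24 h libraries. The partner effect did not pass, at log2 -0.45 ± 0.21 at 48 h (adjusted p = 0.107) and -0.26 ± 0.20 at 24 h (adjusted p = 0.436). Over time Ccr6 fell by log2 0.84 ± 0.21 with the shFabp7 partner (adjusted p = 7.6e-04) and by log2 0.65 ± 0.20 with the control partner (adjusted p = 0.00424). Ccl20 had 4 to 25 counts in a library.

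Cxcr4, the CXCL12 receptor, was lower with the shFabp7 partner at both times. It had 53.2, 61.6 and 62.1 CPM at 48 h with the shFabp7 partner, against 80.8, 81.5 and 82.7 CPM with the control partner. The 24 h values were 52.5, 54.0 and 58.2 CPM with the shFabp7 partner, against 73.5, 73.6 and 83.6 CPM with the control partner. All 6 shFabp7 libraries lay under all 6 control libraries, while the 2 times overlapped within each partner. Cxcr4 fell with the shFabp7 partner by log2 0.47 ± 0.06 at 48 h (0.721 of the control level, adjusted p = 3.3e-07) and by log2 0.48 ± 0.06 at 24 h (0.715 of the control level, adjusted p = 1.5e-05). Ordered by p among the 16945 genes, it had rank 8 at 24 h and rank 450 at 48 h. The effects at the 2 times differed by log2 0.01 ± 0.09 (adjusted p = 0.963), with an interval of 2 SE from -0.16 to 0.19. Over time the log2 fold change was 0.10 ± 0.06 with the shFabp7 partner and 0.09 ± 0.06 with the control partner (adjusted p = 0.162 and 0.209), and neither passed. In the alternatives these changes passed in 2 and 3 of 14.

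Both Cxcr4 calls by partner held in all 14 alternatives for each time, with log2 fold changes from -0.56 to -0.40 at 48 h and from -0.53 to -0.40 at 24 h. Cxcl12, the ligand gene, had 0 counts in 11 libraries and 1 count in the other. Klf2, a transcription factor of quiescent and circulating T cells, averaged 70.1 ± 6.18 CPM with the shFabp7 partner and 96.0 ± 7.16 CPM with the control partner at 48 h, and at 24 h 174 ± 15.1 CPM with the shFabp7 partner and 195 ± 16 CPM with the control partner. It fell with the shFabp7 partner at 48 h (a log2 change of -0.46 ± 0.07, adjusted p = 3.5e-05) and did not pass at 24 h (-0.16 ± 0.07, adjusted p = 0.155). The sum of the 8 neutrophil markers, of which Retnlg was at 0, was 1.09 to 2.52 CPM with the shFabp7 partner, against 3.22 to 5.64 CPM with the control partner at 48 h. At 24 h it was 2.05 to 3.31 CPM with the shFabp7 partner, against 3.26 to 5.28 CPM with the control partner. The ranges were apart at 48 h and touched at 24 h. Of 4 neutrophil markers tested, S100a8, S100a9 and Ngp fell at 48 h (log2 fold changes -2.24, -1.41 and -3.10, adjusted p = 3.9e-05, 0.00119 and 0.0141). The Ngp call was lost in 3 of 12 alternatives. S100a9 also fell at 24 h (log2 fold change -1.20, adjusted p = 0.0410, lost in 6 of 14). Group means of these genes were at most 1.14, 2.38 and 0.402 CPM. The sum of the 9 epithelial and fibroblast markers was apart by partner at both times, at 8.29 to 9.60 CPM with the shFabp7 partner, against 10.7 to 12.6 CPM with the control partner at 48 h, and at 24 h 11.3 to 12 CPM with the shFabp7 partner, against 12.7 to 14.1 CPM with the control partner. Of these markers, none at 0 in all libraries, Cdh1 fell at 48 h (log2 fold change -0.74 ± 0.19, adjusted p = 0.00279) and none passed at 24 h. Of 7 monocyte and macrophage markers tested, Lyz2 fell at 48 h with the shFabp7 partner, and none passed at 24 h. The Lyz2 log2 fold change was -0.76 (adjusted p = 0.0173, lost in 3 of 14 alternatives). The sum of the 10 B cell markers overlapped between partners at both times. The part of other cell types in the Cxcr4 difference was not tested.

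**Figure D2:**
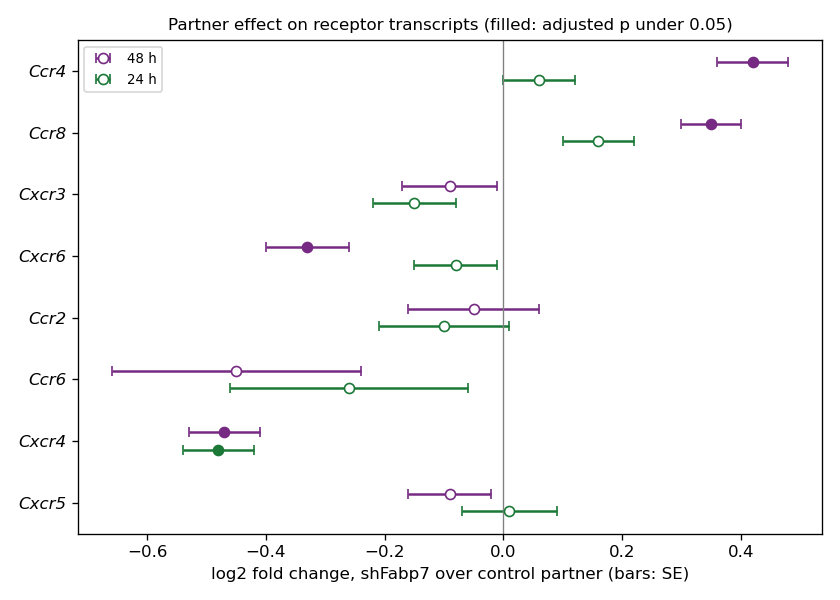
Log2 fold change of each receptor, shFabp7 over control partner, with SE, at 48 h and at 24 h; filled points have an adjusted p under 0.05. Cxcr4 lies near -0.5 at both times, while Ccr4, Ccr8 and Cxcr6 are past the threshold at 48 h.

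Cxcr5, the CXCL13 receptor, had 29.9, 31.0 and 29.4 CPM at 48 h with the shFabp7 partner, against 31.6, 32.5 and 32.1 CPM with the control partner. Its 24 h libraries held 10.3, 9.79 and 11.4 CPM with the shFabp7 partner, against 10.1, 10.6 and 10.5 CPM with the control partner. The 2 times were far apart, and by partner the groups lay just apart at 48 h and overlapped at 24 h. Over time Cxcr5 rose 2.87-fold with the shFabp7 partner (log2 1.52 ± 0.08, adjusted p = 2.4e-18) and 3.08-fold with the control partner (log2 1.62 ± 0.08, adjusted p = 2.6e-19). By partner the log2 fold change was -0.09 ± 0.07 at 48 h (adjusted p = 0.349) and 0.01 ± 0.08 at 24 h (adjusted p = 0.946). Its exons share 110 bp with those of Bcl9l, a beta-catenin cofactor gene on the opposite strand, which did not pass the threshold in any comparison and averaged 130 to 136 CPM at 48 h and 120 to 132 CPM at 24 h.

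Bcl6, the transcription factor of follicular helper T cells, had 20.7, 24.2 and 23.1 CPM at 48 h with the shFabp7 partner, against 28.5, 28.2 and 31.5 CPM with the control partner. It averaged 20.2 ± 1.47 CPM with the shFabp7 partner and 19.8 ± 1.03 CPM with the control partner at 24 h. The 48 h libraries of the control partner stood above all others. Over time Bcl6 rose with the control partner (log2 0.57 ± 0.08, adjusted p = 4.9e-08) and did not pass with the shFabp7 partner (log2 0.17 ± 0.08, adjusted p = 0.0620). Cxcr5 rose with both. The B cell marker sum was higher at 48 h, at 21.6 to 23.1 CPM with the shFabp7 partner and 21.5 to 25.5 CPM with the control partner at 48 h, against 13.8 to 18.2 CPM with the shFabp7 partner and 15.9 to 17.7 CPM with the control partner at 24 h, with 9 of 10 markers tested and none at 0. Most of that difference was Cd79b, and without it the sum was 12.1 to 13.5 CPM with the shFabp7 partner and 10.7 to 13.7 CPM with the control partner at 48 h, against 9.62 to 13 CPM with the shFabp7 partner and 11.5 to 12.6 CPM with the control partner at 24 h. The markers went both ways over time, with 4 up and 2 down with the shFabp7 partner and 3 up and 1 down with the control partner. Pax5 rose (log2 1.01 ± 0.22 and 0.68 ± 0.22) and Fcer2a fell (log2 fold changes -1.73 ± 0.32 and -1.74 ± 0.29). The part of B cells in the Cxcr5 change was not tested. Cxcl13, the ligand gene, had 2 to 10 counts in a library.

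**Figure D3:**
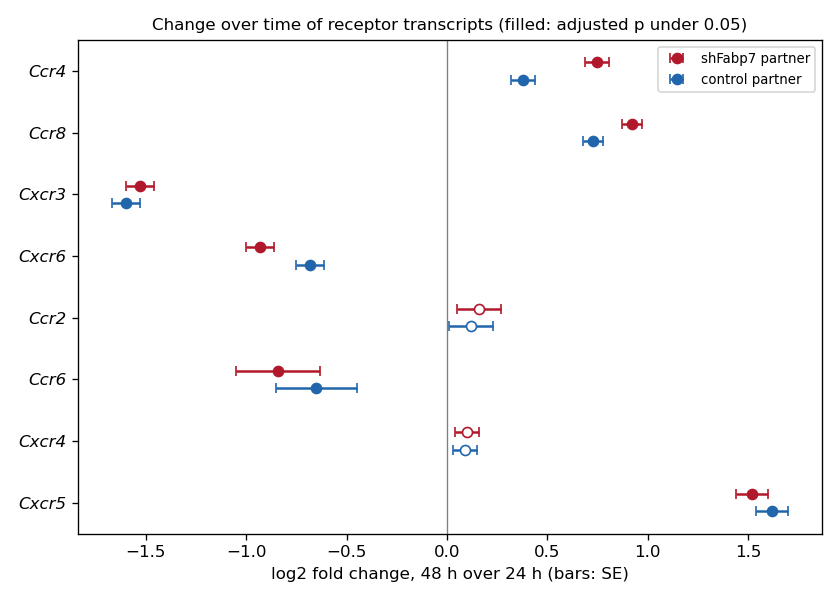
Log2 fold change of each receptor, 48 h over 24 h, with SE, with the shFabp7 and with the control partner; filled points have an adjusted p under 0.05. Cxcr5, Ccr8 and Ccr4 lie above 0 and Cxcr3, Cxcr6 and Ccr6 below it with both partners.

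Scaling bears on the comparison by time. Under library totals alone the median log2 fold change of all genes was 0.21 with the shFabp7 partner and 0.23 with the control partner, against 0.06 and 0.04 with TMM. Under that scaling Ccr2 and Cxcr4 also passed as higher at 48 h with both partners, at log2 0.31 and 0.25 with the shFabp7 partner and 0.31 and 0.28 with the control partner, values near those medians. The directions of the 6 receptors called over time were the same under every scaling run.

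Per kilobase of annotated exon, the scale on which genes can be set side by side, Ccr8 was the most abundant of the 8 receptors in every group. The lengths are those of GENCODE vM21, the annotation behind the counts is not given, and Ccr8 has the shortest length, 1175 bp. In CPM, with no length in it, Cxcr4 (76.9) stood above Ccr8 (63.9) with the control partner at 24 h. In the other groups Ccr8 was highest in CPM too. The shares and ratios per kb below rest on the same lengths. Its mean was 115 CPM per kb with the shFabp7 partner at 48 h, 90.2 with the control partner at 48 h, 60.8 with the shFabp7 partner at 24 h and 54.3 with the control partner at 24 h. Cxcr4 came next in each group, at 32.6, 45.2, 30.4 and 42.5 CPM per kb in the same order, although with the shFabp7 partner at 24 h it stood level with Cxcr6 at 30.2 CPM per kb. Ccr2 and Ccr6 were lowest in each group, at most 1.42 and 1.16 CPM per kb. The 8 receptors together summed to 209 ± 5.02 CPM per kb with the shFabp7 partner and 195 ± 3.49 with the control partner at 48 h, and to 162 ± 3.49 with the shFabp7 partner and 171 ± 3.52 with the control partner at 24 h.

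The mix of receptor transcripts shifted with both factors. Ccr8 made up 55.0 ± 0.815% of the summed CPM per kb with the shFabp7 partner and 46.3 ± 1.35% with the control partner at 48 h, and 37.5 ± 1.38% with the shFabp7 partner and 31.8 ± 1.76% with the control partner at 24 h. Cxcr4 made up 15.6 ± 1.01% with the shFabp7 partner and 23.2 ± 0.477% with the control partner at 48 h, and 18.8 ± 0.976% with the shFabp7 partner and 24.9 ± 1.71% with the control partner at 24 h. The ratio of Cxcr4 to Ccr4 per kb within a library, which library scaling does not touch, was 1.06, 1.23 and 1.19 with the shFabp7 partner at 48 h, against 2.10, 2.15 and 2.21 with the control partner at 48 h. At 24 h it was 1.75, 1.66 and 2.06 with the shFabp7 partner, against 2.65, 2.48 and 2.81 with the control partner. No ratio of a shFabp7 library reached the lowest ratio of a control library at either time. Set against Cxcr3, Ccr8 was 17.9 ± 0.324 times as high per kb with the shFabp7 partner and 13.2 ± 0.483 times with the control partner at 48 h, and 3.28 ± 0.265 times with the shFabp7 partner and 2.64 ± 0.242 times with the control partner at 24 h. These ratios follow from the levels above and were not tested.

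**Figure D4:**
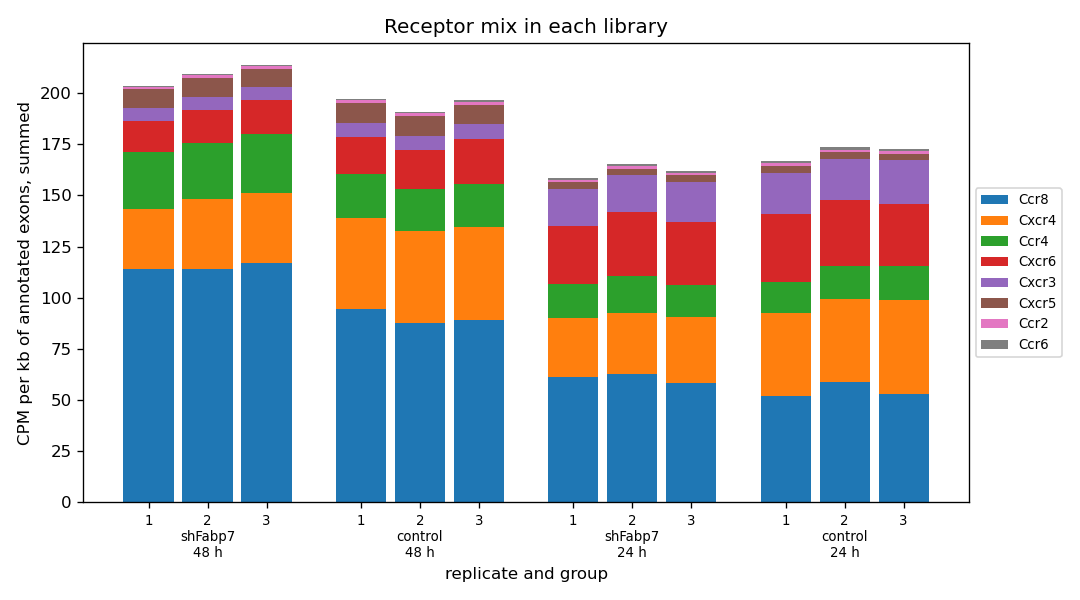
CPM per kb of annotated exon of the 8 receptors, stacked, in each library by group and replicate. The Ccr8 segment takes the largest share in every library and is tallest with the shFabp7 partner at 48 h, where the Cxcr4 segment is shorter than with the control partner.

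Among 15 ligand genes, 10 had enough counts to be tested, and those that were too low were Ccl7, Ccl8, Ccl12, Cxcl12 and Cxcl13. By partner, 1 rose and 4 fell at 48 h, and 1 rose and 2 fell at 24 h, with a median log2 fold change of -0.34 at 48 h and -0.16 at 24 h, against 0.01 and -0.00 over all genes. The gene that rose was Mif, an abundant cytokine gene whose product also binds CXCR4. Mif had 446, 456 and 449 CPM at 48 h with the shFabp7 partner, against 365, 350 and 309 CPM with the control partner. These groups did not overlap (log2 fold change 0.40 ± 0.06, adjusted p = 1.6e-06), and at 24 h the log2 fold change was 0.21 ± 0.06 (adjusted p = 0.0141, lost without the first library of either group, highest adjusted p = 0.0880). Over time 1 ligand gene rose and 5 fell with the shFabp7 partner, and 7 fell with the control partner, with medians of log2 -0.70 and -0.92, against 0.06 and 0.04 over all genes. Ccl17 was the gene that rose (log2 0.28 ± 0.12, adjusted p = 0.0345), a call lost in 8 of 14 alternatives, DESeq2, RLE scaling and the omission of any shFabp7 library at 24 h or of the second at 48 h among them (adjusted p up to 0.200). All counts of a list given here are over genes that passed the filter on low counts. A gene could pass through its highest group alone, and the list was chosen with results of these data known. To be set beside the counts of each list, 19.9% of all genes rose and 11.6% fell by partner at 48 h, and 6.22% and 4.65% at 24 h. Over time 35.9% rose and 30.2% fell with the shFabp7 partner, and 35.8% and 32.0% with the control partner.

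Of 16 regulators of T helper lineages, 15 were tested. By partner 5 rose and 5 fell at 48 h, and 2 rose and 1 fell at 24 h, and the median log2 fold changes were 0.03 and 0.01. Of the calls at 48 h, 1 rise was lost in 8 of 14 alternatives, and falls were lost in 7 and in 1. The other calls at 48 h held in all 14. Besides Gata3 and Tbx21, Batf and Irf4, partners in effector differentiation, rose at 48 h with the shFabp7 partner, by log2 0.43 ± 0.06 and 0.42 ± 0.06 (adjusted p = 2.7e-07 and 8.0e-07). Rora, a nuclear receptor gene that acts in Th17 cells, fell with the shFabp7 partner by log2 0.37 ± 0.06 at 48 h and 0.28 ± 0.06 at 24 h (adjusted p = 1.5e-05 and 0.00354). Over time 5 rose and 7 fell with the shFabp7 partner, and 6 rose and 7 fell with the control partner. Irf4 averaged 726 ± 17 CPM with the shFabp7 partner and 542 ± 47.2 CPM with the control partner at 48 h, and at 24 h 1132 ± 45.7 CPM with the shFabp7 partner and 1124 ± 70.3 CPM with the control partner. Its partner effect changed between the times by log2 0.41 ± 0.08 (adjusted p = 0.00249), as that of Bcl6 did in the other direction (log2 fold change -0.41 ± 0.11, adjusted p = 0.0224).

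**Figure D5:**
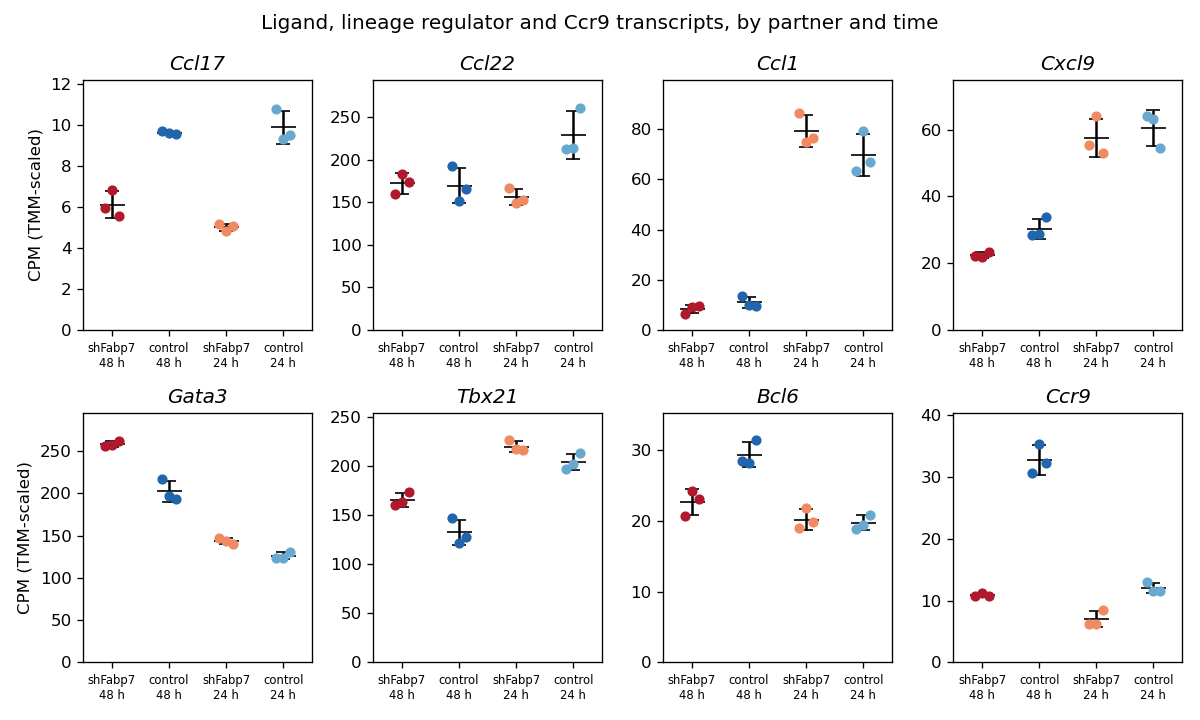
CPM of 4 ligand genes, 3 lineage regulators and Ccr9 in each library, by partner and time, drawn as for the receptors. Ccl17 and Ccr9 are lower with the shFabp7 partner at both times, Gata3 is highest with the shFabp7 partner at 48 h, and Ccl1 and Cxcl9 are lower at 48 h than at 24 h.

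Of 15 other chemokine receptor genes 8 were tested, and 1 changed by partner at either time, Ccr9, the CCL25 receptor of gut-homing T cells. Ccr9 had 10.7, 11.3 and 10.7 CPM at 48 h with the shFabp7 partner, against 30.6, 35.3 and 32.3 CPM with the control partner. With the shFabp7 partner at 24 h there were 6.25, 6.27 and 8.47 CPM, against 13, 11.5 and 11.6 CPM with the control partner. The groups did not overlap at either time, and the fold changes by partner were larger than for any of the 8 receptors. Ccr9 fell with the shFabp7 partner by log2 1.59 ± 0.09 at 48 h (adjusted p = 6.7e-14) and by log2 0.77 ± 0.10 at 24 h (adjusted p = 2.2e-05). Over time 6 of these 8 receptor genes rose with the shFabp7 partner, as did 35.9% of all genes. With the control partner 6 rose and 1 fell, against 35.8% and 32.0% of all genes. The medians were log2 0.91 and 1.02, against 0.06 and 0.04 over all genes. Ccrl2, an atypical receptor that holds chemerin on the cell surface, rose by log2 1.18 ± 0.14 with the shFabp7 partner and 1.06 ± 0.14 with the control partner (adjusted p = 5.9e-09 and 3.1e-08). Cxcr2, best known on neutrophils, rose too (adjusted p = 7.3e-05 with the shFabp7 partner and 5.9e-04 with the control partner), at a mean of at most 1.34 CPM in any group.

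All 20 genes of receptor signalling and migration were tested. By partner 8 rose and 1 fell at 48 h and 2 fell at 24 h, with a median log2 fold change of 0.07 at 48 h and -0.03 at 24 h, against 0.01 and -0.00 over all genes. Elmo1, which with Dock2 activates Rac, and the G protein subunit gene Gnb1 rose at 48 h, by log2 0.36 ± 0.05 and 0.31 ± 0.05 (adjusted p = 1.9e-06 and 1.5e-05). Gng2, another G protein subunit gene, fell by log2 0.34 ± 0.06 at 48 h (adjusted p = 7.6e-05). The other 6 rises at 48 h were log2 0.14 to 0.20, and all 6, among them that of Rap1b, a GTPase of integrin activation (log2 0.20 ± 0.05, adjusted p = 0.00254, up to 0.0821), were lost under upper-quartile scaling and under library totals. Under each of these scalings 2 genes of the list rose and 2 fell. Over time 11 rose and 5 fell with the shFabp7 partner, and 7 rose and 6 fell with the control partner. Gng2 rose the most by p (log2 1.37 ± 0.07 and 1.44 ± 0.07), and Rhoa, a GTPase of the cell rear, fell (log2 fold changes -0.50 ± 0.05 and -0.62 ± 0.05). With the control partner these calls held in every alternative. With the shFabp7 partner the rises of Rap1b and Elmo1 were lost in 1 and 6 of 14, and another rise in 10. A fall with that partner was lost in 2, under upper-quartile scaling and under library totals.

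All 14 genes of receptor desensitisation were tested, and by partner 2 rose and 2 fell at 48 h, and 1 rose and 3 fell at 24 h, with median log2 fold changes of -0.05 and -0.06. Of the calls at 48 h, those of Rgs19, another regulator of Gi signalling (log2 0.24), and Rgs10 held in all 14 alternatives, while that of the receptor kinase gene Grk2 (log2 0.15) was lost in 8 and that of Arrb1 (log2 -0.15) in 9. At 24 h the fall of Grk3 (log2 fold change -0.54) was lost in 4 and the rise of Rgs16 (log2 0.27) in 1, and those of Arrb1 (log2 fold change -0.30) and Rgs10 held in all 14. Rgs10, which speeds the shut-off of Gi proteins, had 31.5, 32.7 and 31.8 CPM at 48 h with the shFabp7 partner, against 48.9, 54.7 and 54.2 CPM with the control partner. At 24 h it had 23.6, 24.6 and 29.7 CPM with the shFabp7 partner, against 37.7, 36.5 and 38.0 CPM with the control partner. The groups were apart at both times. Rgs10 fell with the shFabp7 partner by log2 0.72 ± 0.07 at 48 h (adjusted p = 1.3e-09) and by log2 0.53 ± 0.07 at 24 h (adjusted p = 2.6e-05). Over time 7 rose and 3 fell with the shFabp7 partner, and 7 rose and 4 fell with the control partner. Arrb1, the beta-arrestin 1 gene, rose by log2 1.23 ± 0.06 with the shFabp7 partner and 1.08 ± 0.06 with the control partner, and Rgs16, another Gi regulator gene, fell (log2 fold changes -1.47 ± 0.07 and -1.31 ± 0.07).

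Likeness of pattern was measured as Pearson's r of log2 CPM over the 12 libraries among 11309 genes with a mean of at least 1 CPM, as a description only, since libraries share time, partner and scaling. Cxcr5 was most like Mxd3, Ercc5 and Dact3 (r = 0.999, 0.998 and 0.997), and 2610 genes had r above 0.9 with it. Cxcr3 was most like Ddx5, Ifi47 and Calhm6 (r = 0.997 each, 1996 genes above 0.9), and Ccr8 most like Lif, Crip2 and Phlda1 (r = 0.997, 0.995 and 0.995, 1707 genes). For Cxcr6 the nearest were Cxcl9, Laptm4a and Srsf5 (r = 0.992, 0.992 and 0.991, 897 genes), and for Ccr4 Gcnt4, Zfp518b and Marcksl1 (r = 0.988, 0.988 and 0.986, 817 genes). Ccr6 had Prpf4b, Mau2 and Cybc1 as nearest (r = 0.965, 0.963 and 0.962, 188 genes). Cxcr4 had fewer genes like it, 18 above 0.9, led by Dtx4, Neurl3 and Ankrd12 (r = 0.975, 0.972 and 0.961). Ccr2 reached at most r = 0.841, with Alpk3, and no gene lay above 0.9. Between the receptors, r of Cxcr4 with the other 7 ran from -0.18 to 0.42.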

How the data were processed

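RNA was sequenced from 12 libraries of mouse spleen T cells, 3 for each of 4 groups taken from the sample labels. The values in the deposited table are whole read counts by gene symbol, left unscaled by the authors. The submitters' processing notes list TopHat2 2.0.13, HTSeq 0.6.1p1 and CASAVA 1.8.2, and build GRCm39. Tool settings, annotation release and strand mode are not given in the sources used here, and reads of overlapping genes were not separated here. Library totals were 32.0 to 40.6 M counts, and 0 columns were left unmapped.

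Genes were kept with filterByExpr by group (minimum count 10, minimum total 15) and scaled by TMM. The test was edgeR 4.0.16 quasi-likelihood (R 4.3.3, limma 3.58.1 loaded; robust, all 12 libraries fitted together with a coefficient for each group), Benjamini-Hochberg adjusted over 16945 genes at 0.05. SE is the log2 fold change divided by the root of F. Intervals cover 2 SE. The 5 comparisons were shFabp7 against control partner at each time, 48 h against 24 h with each partner, and the difference of the partner effects. Replicates differed beyond counting noise in all 12 pairs within groups (chi-square over its degrees of freedom was between 4.10 and 13.0), and none was treated as a duplicate. CPM per kb used the union exon length of GENCODE vM21, matched by symbol.

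The alternatives were RLE, upper-quartile and library-total scaling, DESeq2 1.42.0, a fit on the compared groups alone, a stricter low-count filter (at least 1 CPM in 3 samples, total 100) and none, a block for the replicate number, and each library left out. The same settings for list genes and list counts, and marker sums without their highest marker, were added after the data had been seen. The procedure was tested on simulated data. Receptors and gene lists were chosen with earlier results of these data known. All 8 receptors were named whatever their values, and list genes by the smallest adjusted p per comparison, at most 4 per list, beside the ligands and lineage factors of each receptor. Some genes of these lists are not reported here.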

Additional observations from a re-analysis of the deposited data

Results flagged for a closer look

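The following results stand out because the partner effect (log2 fold change, shFabp7 over control) differed between 48 h and 24 h by the interaction contrast of edgeR's quasi-likelihood test. Among the 8 receptors this held for Ccr4, whose effect was larger at 48 h by 0.37 ± 0.08 (adjusted p = 0.00498, past the threshold in 18 of 19 alternatives). Among the genes listed beside them, the effect on Irf4 was larger at 48 h by 0.41 ± 0.08 (adjusted p = 0.00249). The log2 fold change of Ccl22 was higher at 48 h by 0.57 ± 0.13 (adjusted p = 0.0240). Ccl22 fell at 24 h (-0.55) and was not called at 48 h, so its effect was not larger at 48 h. The effect on Gnb1 was larger at 48 h by 0.26 ± 0.07 (adjusted p = 0.0297). The log2 fold change of Pik3cg, a subunit gene of phosphoinositide 3-kinase gamma, was higher at 48 h by 0.28 ± 0.08 (adjusted p = 0.0263). Pik3cg fell at 24 h (-0.18, a call lost in 7 of 14 alternatives) and was not called at 48 h. The change was negative for Ccr9 (-0.81 ± 0.14, adjusted p = 5.7e-04), Bcl6 (-0.41 ± 0.11, adjusted p = 0.0224) and Cxcl9 (-0.36 ± 0.11, adjusted p = 0.0421).

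Of 19 alternatives, none ended the calls of Ccr9 (highest adjusted p = 0.00588) and Irf4 (highest adjusted p = 0.0412). The call of Bcl6 was lost in 3, that of Ccl22 in 6, that of Cxcl9 in 7, that of Pik3cg in 12 and that of Gnb1 in 14.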

How the results depend on the processing

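Of 600 recomputed fold changes of the 8 receptors, 560 kept their direction and their side of the threshold. All calls of the receptors by partner or time held in every alternative, and Ccr4 lost its change of partner effect without shFabp7 replicate 3 at 24 h (0.27). At 24 h the receptors called were 2 under RLE scaling, without the low-count filter and with DESeq2, the second being Ccr8 (log2 0.19, 0.18 and 0.19). The receptors whose partner effect changed were 2 without the filter, the second being Cxcr6 (log2 -0.29). Leaving out 1 library gave 1 to 2 receptors called at 24 h, 4 at 48 h, 6 to 7 over time with each partner and 0 to 2 for the change of effect; over all genes it gave 949 to 2525, 4300 to 5454, 10612 to 10799 (shFabp7 partner), 10908 to 11281 (control partner) and 319 to 1680.

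Signs turned for values near 0 that were not called. Cxcr5 at 24 h was -0.01 under upper-quartile scaling, -0.03 under library totals and -0.03 to 0.08 without 1 library, and Ccr2 at 48 h was -0.12 to 0.01 without 1 library. The change of effect of Cxcr4 was -0.002 (RLE), -0.05 (upper quartile), -0.03 (library totals), -0.03 (no filter), -0.001 (DESeq2) and -0.10 to 0.08 without 1 library. That of Ccr2 was -0.01 under upper-quartile scaling and -0.07 to 0.11 without 1 library, and that of Cxcr3 -0.01 to 0.08 without 1 library. The cause was not tested. Cxcr5 at 48 h passed under upper-quartile scaling and library totals (log2 -0.18 and -0.17).

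Higher calls were 57.2% of all calls at 24 h (33.2 to 73.1% under other scalings), 63.2% at 48 h (39.9 to 67.1%), 54.3% over time with the shFabp7 partner (51.2 to 66.4%), 52.8% with the control partner (50.9 to 67.2%) and 79.0% for the change of effect (48.9 to 73.3%). Replicate numbers did not pair the samples: deviations of same-numbered libraries had r from -0.07 to 0.01 over 12 pairs, and 1 of 12 libraries was best correlated with its own number. With the replicate number as a block, 1777 genes were called at 24 h and 5195 at 48 h, 11120 and 11388 over time with the shFabp7 and the control partner and 862 for the change of effect, and the receptor calls were the same 1, 4, 6, 6 and 1. At 38 to 102 counts, depth limits Ccr6.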
